A study of Sus scrofa with 6 samples.

Results

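The 14-3-3 proteins are a family of small dimeric adaptors that dock onto other proteins once these are phosphorylated at a serine or threonine in a fitting sequence, and so hold, hide or protect them. In oocytes and early embryos they are best known for binding phosphorylated CDC25 phosphatases, which keeps the activator of cyclin B and CDK1 away from its substrate until meiosis or mitosis begins. Each isoform is made by its own gene. Of the 7 genes listed for the family, the deposited table of 17678 genes held 4 under their own name, YWHAH (eta), YWHAB (beta), YWHAG (gamma) and YWHAQ (theta). YWHAZ (zeta) also stood in the table but without a name, and was found through its Ensembl identifier. YWHAE (epsilon) and SFN (sigma) were matched neither by name nor by identifier and are not analysed here. YWHAH was chosen by its normalized values in these libraries, which were higher in SIN3A KD embryos, so its own change is given as a description without a test, and the results turn on its 4 measured relatives.

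The messenger RNA came from porcine 2-cell embryos made by parthenogenetic activation, which carry no paternal genome, and was collected 32 h after activation, before the porcine embryonic genome is broadly transcribed. Oocytes from slaughterhouse ovaries of crossbred peripubertal pigs (Landrace, Yorkshire and Duroc) were matured in vitro. They were injected at MII with a non-specific siRNA (NC) or with 3 siRNAs against SIN3A (SIN3A_KD, here KD) and then activated. There were 3 libraries a group, each from a pool of 20 embryos. The authors call the replicates independent. Neither they nor the labels say that the pools came from separate sets of ovaries, so a p-value covers the spread between these pools. SIN3A itself, the scaffold of a histone deacetylase complex, fell from 34576 ± 2534 to 2841 ± 1591 normalized units (SD, n = 3 each), which leaves 8.22% of the NC mean (limma adjusted p = 8.45e-06). Every fit kept the direction, but the call was lost without the variance trend (adjusted p = 0.423) and with the robust eBayes step (adjusted p = 0.469). The values of each library summed to between 11084950 and 11500709, a range set by the normalization, and the Spearman correlation between any pair of libraries was 0.982 to 0.987. All 11 oocyte and embryo markers found in the table were present, with BMP15 at 19476 or more in every library. Among 13 cumulus and granulosa cell markers found, PTX3, TNFAIP6, AMH and LHCGR never exceeded 2.21, and CD44 never exceeded 5.45. Others were present in every library, VCAN at 735 to 925, VIM at 83.6 to 168 and COL1A1 at 15.7 to 43.7. The highest values of STAR, TNFAIP2, INHBA, CYP11A1 and CYP19A1 were 23.4, 19.8, 17.7, 14.2 and 10.7. The sum of the list was 927 to 1101 in NC and 882 to 1002 in KD libraries, most of it from VCAN. Of 9 epithelial and trophectoderm markers found, the keratins KRT7, KRT8 and KRT18 did not exceed 10.2 in any library. CDH1 (4116 to 5068), EPCAM (499 to 773) and CLDN4 (80.9 to 161) were present in all. TEAD4 (10.8 to 31.7), CDX2 (9.40 to 26.3) and GATA3 (6.03 to 34.1) were lower and also present in all. The sum of that list was 4784 to 5767 in NC and 5268 to 5510.5 in KD libraries.

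Because the isoforms are close relatives, the first question is whether short reads can tell their messages apart. The coding sequences of YWHAH and YWHAG were the most alike of the measured members, with 594 of 741 aligned bases identical (80.2%). YWHAH was 73.5% identical to YWHAQ, 71.9% to YWHAZ and 71.8% to YWHAB, and YWHAB was 76.5% identical to YWHAQ. The longest run without a difference between YWHAH and YWHAG was 30 bases long, near the start of the coding sequence in both. It is printed below for both genes with the aligned stretch of the other 3 members, in Sscrofa11.1 and as RefSeq annotates the plus strand, with capitals at each base that differs from YWHAH.

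YWHAH, exon 1, chr14:48544395-48544424: gagcaggcggagcgctacgacgacatggcc

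YWHAG, exon 1, chr3:9995076-9995105: gagcaggcggagcgctacgacgacatggcc

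YWHAQ, exon 2, chr3:126739448-126739477: gagcaggcCgagcgctacgacgacatggcc

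YWHAB, exon 2, chr17:47312368-47312397: gagcaggcTgagcgctaTgaTgacatggcc

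YWHAZ, exon 4, chr4:35979874-35979903: gagcaggcTgagcgAtaTgaTgacatggcA

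In these 30 bases YWHAG had 0 differences from YWHAH, YWHAQ had 1, YWHAB had 3 and YWHAZ had 5. This stretch is where the messages are hardest to separate, yet even here no word of 31 bases, the default word length of the Salmon index, was common to YWHAH and YWHAG. The word length that was used is not given in the sources used here. Over all RefSeq mRNAs of the 7 listed genes, the number of shared words of 31 bases was 0 for every pair of members. YWHAH had 1832 such words, and 8 of them also occurred, on either strand, in OAS2, an interferon-induced enzyme whose value was at most 10.8 in any library. YWHAB, YWHAG, YWHAQ and YWHAZ shared 0 words with the RefSeq mRNAs of other genes placed on chromosomes. Pseudogenes, non-coding transcripts and unplaced scaffolds were not searched, and the deposited values are for Ensembl genes.

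The genes lie apart from each other in the genome, on chromosomes 3, 4, 14 and 17, with YWHAG and YWHAQ both on chromosome 3. YWHAH (ENSSSCG00000010035) spans chr14:48544031-48556496 and has a single RefSeq mRNA of 1862 bases in 2 exons, with 741 coding bases and a 3' UTR of 799 bases. YWHAB (ENSSSCG00000007381) spans chr17:47298020-47317826, with an annotated mRNA of 1047 bases and a 3' UTR of 84 bases. YWHAG (ENSSSCG00000007692) spans chr3:9994802-10023296 and has an mRNA of 2151 bases. YWHAQ (ENSSSCG00000008638) spans chr3:126738795-126772784 and has an mRNA of 1955 bases. YWHAZ (ENSSSCG00000006062) spans chr4:35975513-36009909, and its longest of 5 mRNAs has 3682 bases. The annotated 3' UTR of YWHAB is shorter than that of 95.04% of the tested genes with a RefSeq mRNA, so its level per length depends on a model that may be incomplete.

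For YWHAH, the eta isoform, NC replicates 1 to 3 gave 1278, 1204 and 1337 normalized units, and KD replicates 1 to 3 gave 1923, 2016 and 1653. All 3 KD libraries lay above all 3 NC libraries, with a gap between 1337 and 1653. The means were 1273 ± 66.5 and 1864 ± 189 (SD, n = 3 each), a ratio of 1.46, which is 0.55 in log2(value + 1). Groups that did not overlap with KD on the higher side made up 4.85% of the 11986 genes tested, and since YWHAH was chosen for this rise, nothing is read from that share. The KD replicates stood at 151%, 158% and 130% of the NC mean.

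YWHAB, the beta isoform and a partner of RAF kinases among others, stood at 6336, 5095 and 5569 in the NC libraries and at 5838, 4941 and 6286 in the KD libraries. The groups overlapped over most of their range. The means were 5667 ± 626 and 5689 ± 685 (SD, n = 3 each). The log2 difference was 0.0041, with a 95% interval from -0.21 to 0.22 and a limma adjusted p of 0.999 (Benjamini-Hochberg, over all genes tested). The sign of so small a change turned with the scaling between libraries.

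YWHAG, the gamma isoform and the closest relative of YWHAH in coding sequence, stood at 2141, 1861 and 1914 in the NC libraries and at 1933, 1838 and 1870 in the KD libraries. The KD values lay within or just under the range of the NC values. The means were 1972 ± 149 and 1881 ± 48.4 (SD, n = 3 each). KD was 0.95 of NC, a log2 difference of -0.07 (95% interval -0.26 to 0.13, limma adjusted p = 0.997).

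YWHAQ, the theta isoform, stood at 1441, 1266 and 1496 in the NC libraries and at 1279, 1380 and 1364 in the KD libraries. All 3 KD values fell inside the NC range. The means were 1401 ± 120 and 1341 ± 54.5 (SD, n = 3 each). KD was 0.96 of NC, a log2 difference of -0.06 (95% interval -0.27 to 0.15, limma adjusted p = 0.997).

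YWHAZ, the zeta isoform and the lowest of the 5, stood at 372, 334 and 421 in the NC libraries and at 358, 357 and 324 in the KD libraries. One KD library was below the NC range and the other two were inside it. The means were 376 ± 43.6 and 347 ± 19.4 (SD, n = 3 each). KD was 0.92 of NC, a log2 difference of -0.11 (95% interval -0.39 to 0.17, limma adjusted p = 0.997).

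**Figure D1:**
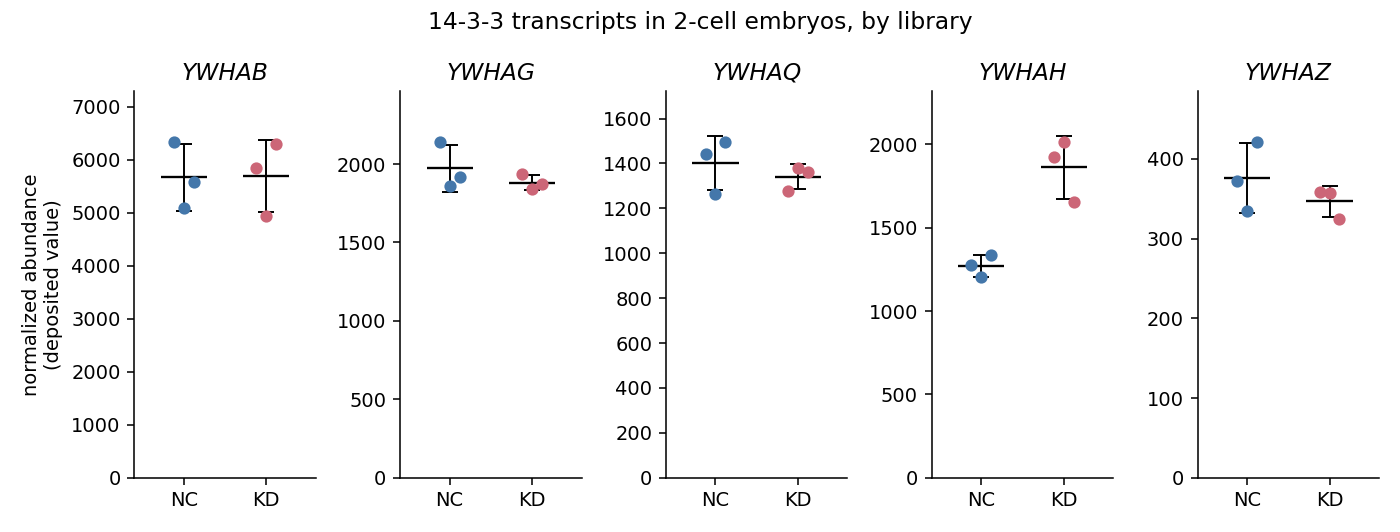
Normalized abundance (deposited value, linear axis from 0, a separate scale for each gene) of the 5 measured 14-3-3 transcripts in the 3 NC (blue) and 3 KD (red) libraries, left to right in replicate order, with the mean as a line and the SD as a bar. The YWHAH values are 1204 to 1337 in NC and 1653 to 2016 in KD, while in the other 4 genes the groups overlap.

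Of the 4 relatives, 0 passed an adjusted p of 0.05 in limma, 0 had an unadjusted p below 0.05 and 0 had groups that did not overlap. Over all genes tested 0.159% were called in either direction, and 9.79% had groups that did not overlap in either direction, so a count of 0 in 4 is near the background. What the 4 genes add is the width of their intervals. Their median log2 fold change was -0.06, beside 0.0026 over all genes tested, and the outermost bounds of their 95% intervals were -0.39 and 0.22. In YWHAB, YWHAG, YWHAQ and YWHAZ the upper bounds were ratios of 1.17, 1.09, 1.11 and 1.12. The YWHAH ratio of 1.46 lay above each of these bounds, and because YWHAH was chosen for it, the difference between it and its relatives was not tested.

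**Figure D2:**
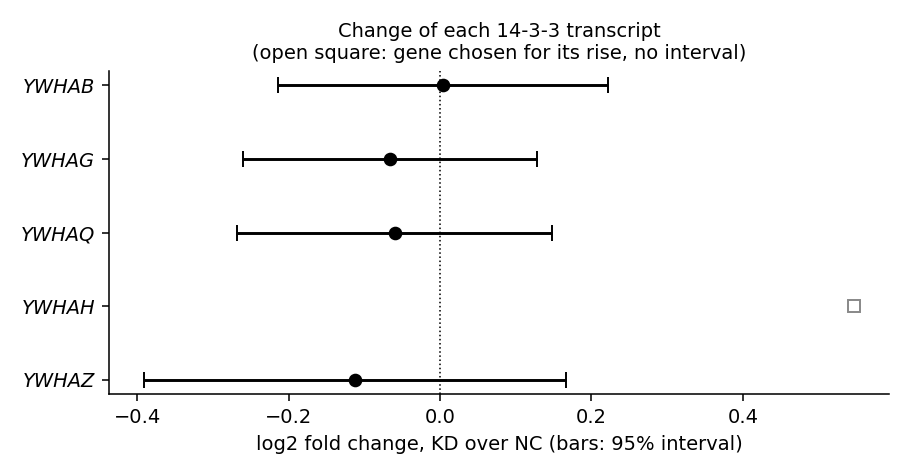
Log2 fold change of KD over NC for the 5 measured 14-3-3 transcripts, with the 95% interval from limma for the 4 relatives of YWHAH, from the highest level in NC (top) to the lowest. The intervals of the 4 filled points include 0 and end at or below 0.22, and the open square at 0.55 marks YWHAH, which was chosen for its rise and is drawn without an interval.

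Levels of different genes were compared per kilobase of the longest RefSeq mRNA. In NC embryos YWHAB stood at 5412 ± 598 units per kilobase (SD, n = 3). YWHAG followed at 917 ± 69.2, YWHAQ at 717 ± 61.5, YWHAH at 684 ± 35.7 and YWHAZ at 102 ± 11.8 (SD, n = 3 each). YWHAB thus held 69.0% of the summed level of the 5 transcripts in NC embryos, and YWHAZ 1.31%. The order was the same in all 3 NC libraries.

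The step from YWHAB to YWHAG was 5.52-fold to 6.91-fold within single libraries and went the same way in 6 of 6. Its size rests on the annotated YWHAB mRNA, since per kilobase of coding sequence it was 2.70-fold to 3.37-fold. The step from YWHAG to YWHAQ was small, 1.16-fold to 1.37-fold, and also went the same way in 6 of 6. The pairs were formed by ranking these same levels, so the steps are given as a description without a test. Between YWHAQ and YWHAH the NC levels per kilobase differed by less than their spread, although YWHAQ was the higher in each of the 3 NC libraries. YWHAH exceeded YWHAZ 6.28-fold to 11.2-fold per kilobase of mRNA in single libraries, and 3.16-fold to 5.62-fold per kilobase of coding sequence. With the coding length, which does not rest on the annotated 3' UTRs, the NC order was the same and YWHAB held 53.0% of the sum.

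In all 3 KD libraries YWHAH was above YWHAQ, and per kilobase of mRNA also above YWHAG. Against YWHAG the ratio of the deposited values was 0.597, 0.647 and 0.698 in NC and 0.995, 1.10 and 0.884 in KD replicates 1 to 3, so by the deposited values YWHAH exceeded YWHAG in 1 of 3 KD libraries. In KD replicates 1 and 3 the higher rank per kilobase follows from the shorter annotated mRNA of YWHAH. Against YWHAQ the ratio was 0.887, 0.951 and 0.894 in NC and 1.504, 1.460 and 1.212 in KD replicates 1 to 3. The share of YWHAH in the summed level per kilobase was 8.01%, 9.09% and 9.20% in NC and 12.5%, 14.5% and 10.4% in KD replicates 1 to 3. These ratios contain the change for which YWHAH was chosen and are given as a description.

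**Figure D3:**
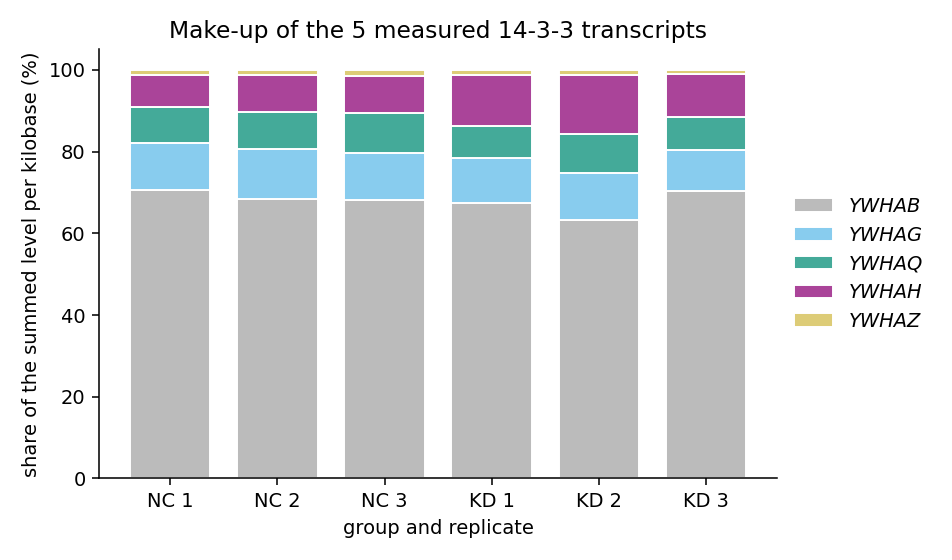
Share (%) of each transcript in the summed level per kilobase of longest RefSeq mRNA of the 5 measured 14-3-3 genes, one bar for each library. YWHAB takes 63.3% to 70.6% of every bar, and the YWHAH band is 8.01% to 9.20% in NC and 10.4% to 14.5% in KD libraries.

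The sum of the 4 relatives per kilobase, without YWHAH, was 7885, 6470 and 7089 in NC and 7226, 6377 and 7659 in KD replicates 1 to 3. The groups overlapped, with the highest value in NC replicate 1 and the lowest in KD replicate 2. The means were 7148 ± 709 and 7088 ± 652 (SD, n = 3 each), so that KD stood at 99.2% of NC (exact two-sided permutation test, p = 0.9, where 3 against 3 cannot go below 0.1). Most of this sum is YWHAB. The values are relative to the other messages of a library. They show neither the amount of RNA per embryo nor the contribution of single embryos to a pool.

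The transcripts were also compared for what their ends hold. The last 300 bases of the mRNA were read for 8443 tested genes with a 3' UTR at least that long, on the mRNA strand only, and YWHAB has no such window. The cytoplasmic polyadenylation element TTTTAT, which can drive tail lengthening of maternal messages, was in 32.5% of these windows, in 1 copy in YWHAQ and in YWHAZ and in 0 copies in YWHAH and in YWHAG. The variant TTTTAA was in 40.1% of windows, with 1 copy in YWHAG and in YWHAZ and 0 in YWHAH and in YWHAQ. The polyadenylation hexamer AATAAA was in 68.4% of windows and in all 4 members, which hold 1 copy each except YWHAZ with 2. The AU-rich pentamer ATTTA was in 48.3% of windows, with 1 copy in YWHAH and 2 in YWHAQ. The Pumilio motif TGTANATA was in 11% of windows and in 0 of the 4. The 3' UTR of YWHAH, at 799 bases, was shorter than the median of 1161 bases of the tested genes.

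The neighbours of YWHAH on chromosome 14 were looked at after its values were seen. Among tested genes with a RefSeq position, DEPDC5, a subunit of a complex that restrains mTORC1, lies 20.5 kb before it and differed by -0.02 in log2 (limma adjusted p = 0.997). PRR14L, 126 kb before it, had one of 0.06. On the other side GNAZ, a G protein subunit, lies 576 kb away with -0.19, and BCR, a GTPase regulator that itself binds 14-3-3 proteins, lies 652 kb away with 0.19. For these 3 genes too the limma adjusted p was 0.997. BCR was the only one of the 4 whose groups did not overlap, with values of 1414, 1544 and 1593 in NC and of 1848, 1633 and 1700 in KD replicates 1 to 3. Over all genes tested 9.79% did not overlap in either direction, and 4.85% with KD above NC.

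The genes whose profile over the 6 libraries was most like that of YWHAH were found among 10853 named tested genes, by the root mean square difference of log2(value + 1) after each gene was centred on its own mean. They were DCXR, a dicarbonyl and sugar reductase (0.049), ZNF512B, a zinc finger protein (0.071), SETD7, a lysine methyltransferase (0.087), MIPEP, a mitochondrial peptidase (0.089), and TSPYL1, of the nucleosome assembly protein family (0.097). All 5 had KD values above all NC values, a direction fixed by the way they were chosen. DCXR, the nearest, had a mean of 22.0 in NC and 31.5 in KD embryos, far lower than YWHAH, while TSPYL1 had 618 ± 66.0 in NC and 884 ± 22.8 in KD embryos (SD, n = 3 each). Of the 4 relatives YWHAQ was the nearest to YWHAH at 0.32. Among all 11986 genes tested, unnamed ones and YWHAH itself included, 4439 were nearer than YWHAQ.

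The partners of 14-3-3 proteins were taken from 5 lists, of client proteins and of the enzymes that write or remove the phosphates on which docking depends. They named 102 genes, of which 99 were in the table and 91 were tested. Of these 0 passed an adjusted p of 0.05 in limma as higher in KD, beside 0.0584% of all genes, and 0 as lower, beside 0.1%. In either direction 7 had an unadjusted p below 0.05, beside 4.61% of all genes. In 7 genes KD lay above NC without overlap, beside 4.85% of all genes, and in 2 below, beside 4.94%. The median log2 fold change was 0.04, beside 0.0026 over all genes tested.

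Of the cell cycle clients, 10 listed and 9 tested, 0 were called, with a median of 0.04. The largest differences were those of CDKN1B, an inhibitor of cyclin-dependent kinases, at -0.71, and of WEE1, the kinase that puts the inhibitory phosphate on CDK1, at 0.40. Both had low values, at most 33.6 and 22.2 in any library, and overlapping groups. WEE2 of the same list had far higher means, 43196 in NC and 44218 in KD embryos, and differed by 0.03. The phosphatases CDC25A, CDC25B and CDC25C had NC means of 1749, 3308 and 1242 and differed by -0.14, 0.04 and -0.07. In WEE2 and these 3 genes the groups overlapped (limma adjusted p = 0.997 for each). Of the survival and signalling clients 23 of 28 were tested and 0 called, with a median of 0.04. IRS2, an insulin receptor substrate, stood at 18.8, 35.1 and 20.5 in the NC and at 46.7, 40.2 and 41.7 in the KD libraries, which do not overlap and differ by 0.82 in log2 (limma adjusted p = 0.997). HDAC5, a deacetylase that 14-3-3 proteins hold in the cytoplasm, differed by 0.76 with overlapping groups. Its values were low, at 9.60, 13.3 and 17.6 in the NC and at 14.9, 20.2 and 40.1 in the KD libraries. Of the 15 tested clients of cytoskeleton, polarity and metabolism 0 were called, with a median of 0.06. The largest differences there were -0.92 for RGS7, a regulator of G protein signalling, and 0.28 for ARHGEF2, an exchange factor for RHOA, and no library exceeded 25.1 in either gene.

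Of the kinases that write docking sites 31 of 34 were tested and 0 called, with a median of 0.04 and 4 genes at an unadjusted p below 0.05, beside 4.61% of all genes and 1, 1, 0 and 1 genes in the cell cycle, signalling, cytoskeleton and phosphatase lists. PRKACB, a catalytic subunit of protein kinase A, the kinase that marks CDC25B for 14-3-3 in the arrested oocyte, stood at 384, 370 and 390 in the NC and at 312, 267 and 300 in the KD libraries. The KD libraries were all lower, by -0.38 in log2 (95% interval -0.65 to -0.11, limma adjusted p = 0.852). PRKD2, protein kinase D2, stood at 154, 133 and 145 in the NC and at 187, 194 and 157 in the KD libraries. These groups do not overlap and differ by 0.31 in log2 (limma adjusted p = 0.997). Of the phosphatases 13 of 14 were tested and 0 called, with a median of 0.04. PPP2R5A, a regulatory subunit of PP2A, stood at 277, 321 and 269 in the NC and at 428, 329 and 396 in the KD libraries, a difference of 0.40 in log2 (limma adjusted p = 0.852). PPP3CB, a catalytic subunit of calcineurin, differed by 0.20 with overlapping groups.

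**Figure D4:**
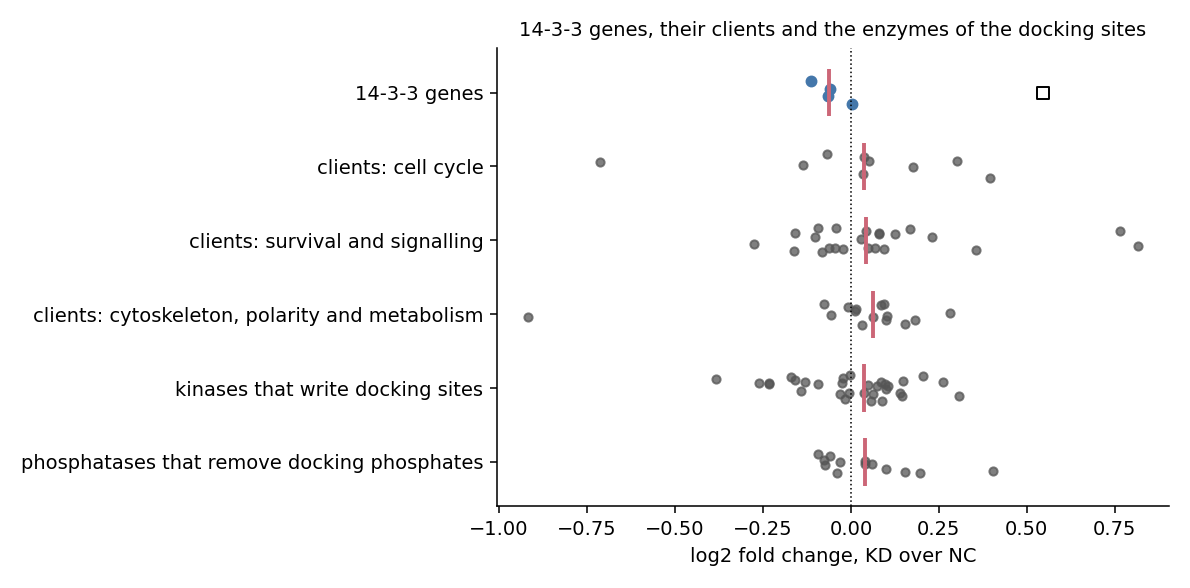
Log2 fold change of KD over NC for the 14-3-3 genes (blue points and, as an open square, YWHAH) and for the tested genes of the 5 lists of clients and docking-site enzymes (grey points), with the list's median as a red line, which leaves out YWHAH. The medians of the 5 lists lie between 0.04 and 0.06, and 0 of the 91 grey points passed an adjusted p of 0.05.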

How the data were processed

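Polyadenylated RNA of 6 libraries was sequenced. The authors quantified them against the Sscrofa11.1 transcriptome with Salmon 0.14.1 and tested genes with DESeq2, per the labels and the methods. The deposited values are a normalized signal for each Ensembl gene, in 1 table with a column per library. They are not whole numbers and do not add up to a common total. No count test and no counting interval was used, because read totals are not in the sources used here. The spike-in mRNAs were not analysed here. A transcript with a low value has a less precise fold change.

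Groups came from the sample titles. The log2(value + 1) of all genes with a mean of at least 10 entered 1 limma fit (version 3.58.1, R 4.3.3) that let the variance follow the mean. Calls were made at a Benjamini-Hochberg adjusted p below 0.05. The fit was run on simulated data whose changes were larger than that of YWHAH, with a common setting of spread for all genes and unrelated libraries. That check does not bear on smaller changes or on the calls in these data. Fold changes on this scale understate those of low genes. Exact permutation tests used scipy 1.17.1, and sequences pysam 0.24.0 and Biopython 1.88. Figures were drawn with matplotlib 3.10.9.

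Of 3575 genes without a name in the table, 823 were named by Ensembl identifier. Named in the text are the 14-3-3 genes, SIN3A, called genes of the lists, the 2 largest differences of each list and the 5 profiles nearest to YWHAH. OAS2, the neighbours of YWHAH, the single markers, WEE2 and the CDC25 genes fall outside this rule and were chosen after their values were seen. The 14-3-3 genes and the lists were chosen with earlier results of these data known. RefSeq positions are those of Sscrofa11.1, the build the labels name, and 85.2% of tested genes had a RefSeq mRNA. Protein sequences were not used here.

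Also tried were a pseudocount of 0.1 or of 10, a minimum mean of 100 or none, quantile normalization, equal library sums, no variance trend, robust eBayes, a replicate block, other lengths and leaving out each library. The coding length was added after seeing the data.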

Additional observations from a re-analysis of the deposited data

How the results depend on the processing

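The log2 fold change of YWHAH was 0.49 to 0.63 in the 6 fits that each lacked a library and 0.53 to 0.55 under the other alternatives. YWHAH was chosen for its rise in these libraries and its groups did not overlap, so no fit that lacked a library could turn its sign. These values are a description. None of the 4 relatives was called in any of the 15 alternatives, where the lowest adjusted p of limma was 0.944. YWHAB changed sign, to -0.018 with quantile normalization and to -0.0038 with equal library sums, and lay between -0.072 and 0.10 in the fits that lacked a library. In those fits YWHAG lay between -0.11 and -0.0055, YWHAQ between -0.13 and -0.011 and YWHAZ between -0.19 and -0.027, each below 0 throughout. The summed level of the relatives had a log2 ratio of -0.012, and one between -0.079 and 0.064 in the fits that lacked a library. It was positive without NC replicate 1 (0.064) and without KD replicate 2 (0.058), with an exact permutation p of at least 0.6 throughout. The cause was not tested. Of the 4 neighbouring pairs of levels, 3 kept their direction in 6 of 6 libraries with the median mRNA length and with the coding length, and 4 did so in the 3 NC libraries alone.

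Over all genes 19 were called, 14 to 26 under the other alternatives except that without the variance trend 0 were, SIN3A included, with 622 at an unadjusted p below 0.05. Leaving out one library gave 11 to 19, with 12 without NC replicate 2, 12 without NC replicate 3 and 11 without KD replicate 2. Same-numbered NC and KD libraries had correlations of 0.109, 0.111 and 0.087 after the group means were removed, and each was most like its own number, a hint from the data and not from the design. With the replicate block 26 genes were called, and it called none of the relatives. The sum of the relatives then had a log2 ratio of -0.012. The small number of pools limits all of these values, and read depth is not known.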
